A study of Mus musculus with 48 samples.

Results

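The Hox genes of C2C12 cells, an established mouse myoblast line that fuses into myotubes when serum is withdrawn, were described across 2 stages of differentiation and 3 durations of mechanical stretch. They were chosen as the gene symbols made of Hox, a cluster letter from a to d and a number whose mean raw count over the 48 libraries was at least 10. Of the 47480 symbols in the count tables, 38 such symbols were analysed and 21 of them passed: 10 HoxA genes, Hoxb3 and Hoxb4 of 10 HoxB genes, 9 of 9 HoxC genes and 0 of 9 HoxD genes. The rule read the mean level over all libraries and no contrast between groups. The last gene inside the limit was Hoxb3, with a mean of 10.1 counts, and the first gene outside it was Hoxb5, with 1.58 counts. Limits of 5 or 20 counts would have kept 21 or 20 genes.

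The libraries fell into 12 groups of 4, given by stage (myoblasts or differentiated cells), by treatment (stretched or non-stretched) and by duration (1 h, 3 h or 6 h). Stretched cells were strained in cycles and in all directions of the plane on flexible collagen-coated plates, and non-stretched cells stayed on the same kind of plate for the same time. Differentiated cells had spent several days in low-serum medium with horse serum, and no group carried a transgene, a deletion or a drug. All groups share 1 cell line, so the Hox code below is that of C2C12 cells and not of muscle in an animal. By the codes in the sample titles, the 4 libraries of a group came from 2 experiments with 2 libraries each, except that the stretched differentiated cells at 1 h came from 3. For 1 library of stretched myoblasts at 1 h the code in the title differs from that of its count column, and the code of the column was used. The tests treat the 4 libraries as independent, so the p-values measure the spread between libraries, and libraries of 1 experiment may share part of it.

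Library totals lay between 48447300 and 77080700 counts, and levels are given as CPM, counts scaled to a common library size, after TMM scaling over the 48 libraries. Of the differentiated muscle cell markers, 6 of 8 were in the tables (Myog, Ckm and Acta1 among them), and their summed level was 4.54 to 14.01 CPM in myoblasts and 10227 to 12575 CPM in differentiated cells. The 7 markers of myoblasts and dividing cells summed to 1439 to 1760 CPM in myoblasts and to 255 to 625 CPM in differentiated cells. The markers of fibroblasts and adipocytes summed to at most 15.9 CPM in any library. Among them Tcf21 was at 0, while Pdgfra had a mean of 6.88 CPM before differentiation and 11.6 CPM after it, with a maximum of 15.2 CPM. In the stage comparison described below, 2 of 2 tested genes of this list were higher in differentiated cells, beside 45% of all genes. One stretched library of differentiated cells at 1 h, replicate 4, stood apart: its 6 stretch response genes summed to 3360 CPM, the lowest library of that group gave 1147 CPM, and it came from an experiment that no other library of the comparison shared. For the comparison at this time, the counts of calls, the median and the main values are therefore also given without it. The count of separate ranges at 1 h and the tests between times are given only with it. No experiment held both stages, so stage and experiment cannot be told apart, and in these bulk cultures fewer cells of a type and less RNA per cell cannot be told apart either.

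Hox proteins are homeodomain transcription factors that give cells their position along the body axis and along the limb. Paralog groups are numbered by position in the cluster: the low numbers are used toward the head, the high numbers toward the tail, and groups 9 to 13 of the A and D clusters also pattern the limb from shoulder to digit. They bind DNA with partners of the TALE family such as Pbx and Meis proteins, and cultured cells commonly keep the Hox code of the place they came from.

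The code of C2C12 cells was carried by the A and C clusters. Summed over the genes described here, HoxA transcripts gave 114 ± 4.72 CPM in myoblasts (SD, n = 24) and 97.1 ± 9.42 CPM in differentiated cells, which was 47.96% and 42.9% of their total. HoxC transcripts summed to 122 ± 6.59 and 128 ± 11.4 CPM, or 51.5% and 56.6%, and HoxB transcripts to 1.23 and 1.27 CPM, or 0.521% and 0.56%. Groups 9 to 13 held 80.05% of this total in myoblasts and 74.7% in differentiated cells, and 80.7% and 76.1% when each gene was first divided by its length. On the mouse GRCm38 build (mm10), these HoxA genes lie on the minus strand of chromosome 6 between 52162417 and 52260880, and the HoxC genes on the plus strand of chromosome 15 between 102921103 and 103036852.

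HoxD was not detectable at this depth in myoblasts. Its 9 genes, on chromosome 2 between 74668310 and 74765142, held 0 counts in all 24 myoblast libraries and 12 counts in the 24 differentiated ones, spread over 11 libraries with at most 2 in any of them. Of the 9 genes, 5 had no count anywhere. The 17 Hox genes outside the rule summed to 226 of 2907560000 counts, and the limit that a count of 0 allows in 1 library, 3 counts, equals 0.0406 CPM in the deepest library and 0.0615 CPM in the shallowest. These limits cover counting error only. Hoxb3, the lowest member, ranged from 0 to 0.386 CPM.

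**Figure D1:**
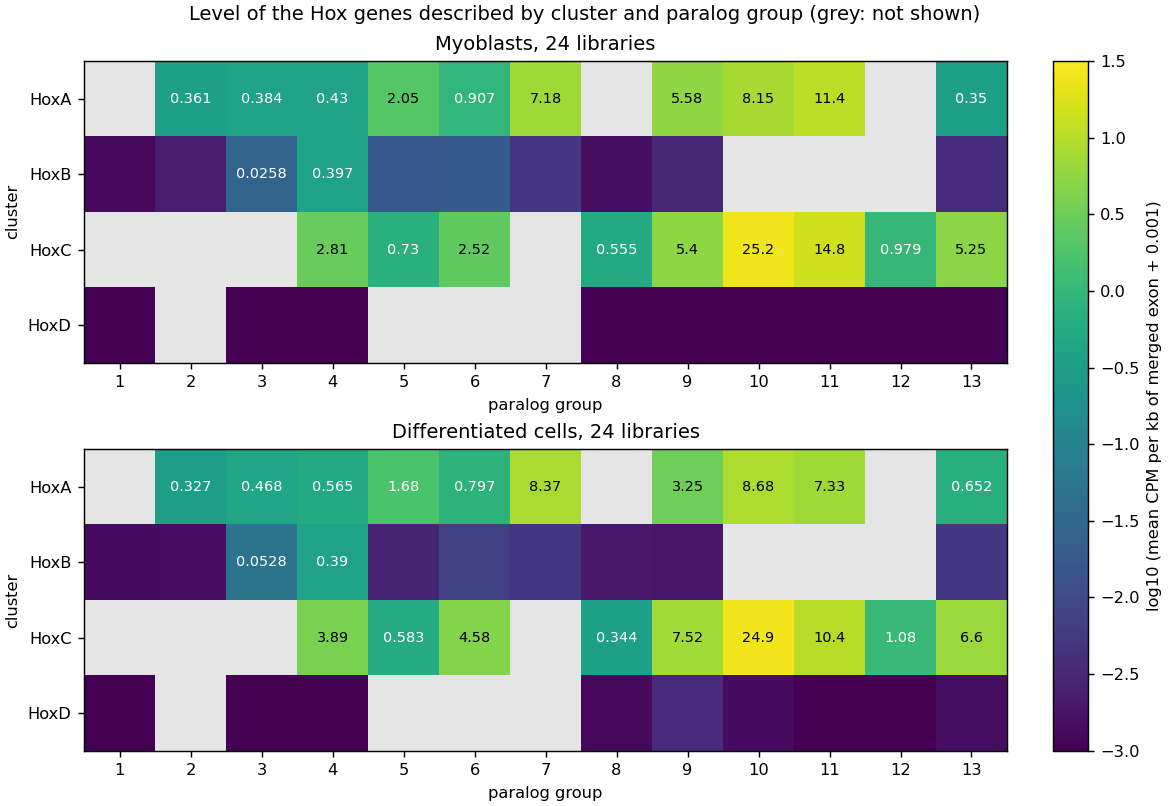
Mean level of 38 Hox genes as log10 of CPM per kilobase of merged exon plus 0.001 (colour), by cluster (rows) and paralog group (columns), in 24 myoblast libraries (top) and 24 libraries of differentiated cells (bottom); grey marks positions that are not shown or hold no gene, and the numbers are CPM per kilobase of the 21 genes that passed the rule. Every HoxA and HoxC position drawn held a level, HoxB held Hoxb3 and Hoxb4, and HoxD had almost no counts in either stage.

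Per kilobase of merged exon, Hoxc10 had the highest level in both stages, with 25.2 CPM per kilobase in myoblasts and 24.9 in differentiated cells. Hoxc11 followed with 14.8 and 10.4, and Hoxa11, a limb and kidney patterning gene, gave 11.4 in myoblasts (rank 3) and 7.33 in differentiated cells (rank 6). Hoxa10 gave 8.15 and 8.68, Hoxa7 gave 7.18 and 8.37, Hoxc9 gave 5.40 and 7.52, and Hoxc13 gave 5.25 and 6.60 CPM per kilobase. Hoxa9 gave 5.58 in myoblasts (rank 6) and 3.25 in differentiated cells (rank 10). Among genes of lower paralog number, Hoxc4 gave 2.81 and 3.89, Hoxc6 2.52 and 4.58, and Hoxa5 2.05 and 1.68. The remaining 10 genes, Hoxa13 and Hoxc12 of the posterior groups among them, were at or below 1.08 CPM per kilobase in both stages, with Hoxb3 the lowest at 0.0258 and 0.0528. Of the 20 pairs of neighbours in this order, 12 in myoblasts and 15 in differentiated cells were closer than the sum of their SDs over libraries, so the fine order is not resolved, while the step from Hoxc10 to Hoxc11 exceeded it in both stages.

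Members differed in how steady they were. Hoxa7 had a coefficient of variation of 3.62% over the 24 myoblast libraries, and Hoxc9 one of 4.53% over the differentiated ones. Hoxb3 varied by 53.4% and 39.5%, at 0 to 26 counts in a library. Some members share sequence with transcripts on the other strand, and the strand setting of the counting is not given in the sources used here: 52.1% of the 31-base words of Hoxb3 occur in Hoxb3os, 33.9% of those of Hoxa11 in Hoxa11os and 19.4% of those of Hoxa7 in Hoxaas3. Hoxa3 shares 26% of its words with other genes, Hoxa4 14.4% and Hoxa2 13.7%. Hoxc5 and Hoxc10 overlap on the same strand, and 4.51% of the words of Hoxc5 occur in Hoxc10 and 7.34% of those of Hoxc10 in Hoxc5. Values of these genes are uncertain, by an amount that the share of words does not measure.

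Upstream sequence is shown for 3 members that fell after stretch and for 2 HoxD genes with almost no counts, so that a detected and an undetected cluster can be read side by side. Each run is the 250 bases before a RefSeq transcript start on GRCm38.p6, 5′ to 3′ on the gene's strand, with CG pairs in capitals. Hoxa9 lies at chr6:52227371-52227620 (-), Hoxa10 at chr6:52240855-52241104 (-), Hoxa13 at chr6:52260881-52261130 (-), Hoxd10 at chr2:74691641-74691890 (+) and Hoxd13 at chr2:74667975-74668224 (+). None of the 5 windows overlaps an exon of the GENCODE annotation. The Hoxa9 window lies inside the annotated gene, which has longer transcripts that start upstream of it.
Hoxa9: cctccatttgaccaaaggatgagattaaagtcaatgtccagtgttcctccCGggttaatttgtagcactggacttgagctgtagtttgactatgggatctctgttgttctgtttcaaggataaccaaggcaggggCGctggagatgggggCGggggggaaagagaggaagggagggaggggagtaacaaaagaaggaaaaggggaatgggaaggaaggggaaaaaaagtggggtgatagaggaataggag
Hoxa10: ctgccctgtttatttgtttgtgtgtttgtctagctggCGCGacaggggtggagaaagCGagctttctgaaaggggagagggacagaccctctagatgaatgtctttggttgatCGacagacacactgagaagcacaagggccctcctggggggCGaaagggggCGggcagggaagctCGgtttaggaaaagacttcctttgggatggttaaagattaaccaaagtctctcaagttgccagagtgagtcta
Hoxa13: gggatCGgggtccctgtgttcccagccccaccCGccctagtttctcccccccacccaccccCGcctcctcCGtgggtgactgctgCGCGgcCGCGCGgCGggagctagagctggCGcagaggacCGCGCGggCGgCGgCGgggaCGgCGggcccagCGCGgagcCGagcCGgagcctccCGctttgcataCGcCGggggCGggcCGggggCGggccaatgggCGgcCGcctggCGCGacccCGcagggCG
Hoxd10: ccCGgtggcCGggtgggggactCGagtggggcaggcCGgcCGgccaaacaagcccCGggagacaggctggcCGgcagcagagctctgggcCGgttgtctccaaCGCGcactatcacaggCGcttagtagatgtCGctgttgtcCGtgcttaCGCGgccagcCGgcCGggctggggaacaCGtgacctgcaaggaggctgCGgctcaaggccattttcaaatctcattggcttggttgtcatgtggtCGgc
Hoxd13: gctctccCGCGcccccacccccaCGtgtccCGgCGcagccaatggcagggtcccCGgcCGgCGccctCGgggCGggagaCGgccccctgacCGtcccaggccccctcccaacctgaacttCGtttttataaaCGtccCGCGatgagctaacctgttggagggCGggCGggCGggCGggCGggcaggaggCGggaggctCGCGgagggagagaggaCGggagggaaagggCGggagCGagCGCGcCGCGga

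These windows held 3 CG pairs in Hoxa9, 7 in Hoxa10, 35 in Hoxa13, 20 in Hoxd10 and 31 in Hoxd13. The window of another RefSeq start of Hoxa10, at chr6:52234940-52235189 (-), held 20, so the number depends on the start that is read. RefSeq windows were at hand for 11 of the 21 members (12 windows) and for 11 of the 17 other Hox genes (12 windows). Their median GC content was 58.6% in members and 57.4% in the others, against 52.4% over all 32851 windows, and the median ratio of observed to chance CG pairs was 0.723, 0.637 and 0.374. The CCAAT motif, read on both strands, was present in 5 of 12 member windows (41.7%), 9 of 12 other Hox windows (75.0%) and 33.8% of all windows. TATAAA was in 1 and 3 windows and 12.4% of all, and the Pbx-Hox motif TGATTNAT in 1 and 1 and 2.82% of all. The AP-1 motif TGANTCA was in 0 and 1 windows and 6.75% of all, and the cyclic AMP element TGACGTCA in 0 and 0 and 1.55% of all. Motifs were counted separately, also where they overlapped. A missing match says only that these letters are absent from this window.

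Levels of most members differed between the stages, while the same clusters were used in both. In the 24 non-stretched libraries, 21 members were tested (edgeR, quasi-likelihood, p-values adjusted over 16582 genes after Benjamini and Hochberg). At an adjusted p under 0.05, 6 members were lower in differentiated cells and 10 higher, beside 44.3% and 45% of all genes tested, so the members' counts have to be read against a background in which most genes differed. With a log2 difference past 0.58 in size as well, 3 were lower and 3 higher, beside 24.9% and 27.1% of all genes. The members' median log2 difference was 0.08 and that of all genes 0.01, and the ranges of 10 of the 21 members did not overlap between stages, beside 63.6% of all genes. Standard errors (SE) throughout are the log2 difference divided by the square root of the test's F value.

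Hoxa9, Hoxa11 and Hoxc8 were lower in differentiated cells. Hoxa9, a posterior HoxA gene also known as a regulator of blood and muscle stem cells, ranged from 30.5 to 37.7 CPM in the 12 non-stretched myoblast libraries and from 17.5 to 21.4 CPM in the 12 differentiated ones, with means of 32.6 ± 2.06 and 19.6 ± 1.00 CPM (SD). Its log2 difference was -0.76 (SE 0.0335, adjusted p = 5.09e-17). Hoxa11 ranged from 23.9 to 26.0 and from 15.5 to 18.5 CPM, a log2 difference of -0.60 (SE 0.0193, adjusted p = 6.87e-20). Hoxc8, which patterns the thorax, ranged from 1.33 to 2.23 and from 0.5802 to 1.22 CPM, a log2 difference of -0.78 (SE 0.110, adjusted p = 4.04e-07). The ranges of these 3 genes were separate, and the differences at 1 h, 3 h and 6 h taken alone were all below 0. Smaller declines passed the test for Hoxc11 (-0.48), Hoxc5 (-0.36) and Hoxa5 (-0.34).

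Hoxc6, Hoxa13 and Hoxb3 were higher in differentiated cells. Hoxc6 ranged from 5.35 to 6.60 CPM in myoblasts and from 10.2 to 13.004 CPM in differentiated cells, a log2 difference of 0.88 (SE 0.0349, adjusted p = 6.22e-18). Hoxa13, the most posterior HoxA gene and one that marks the hand and foot plate, ranged from 0.779 to 1.22 and from 1.36 to 2.29 CPM, a log2 difference of 0.84 (SE 0.0891, adjusted p = 3.00e-09). For both genes every differentiated library lay above every myoblast library. Hoxb3 averaged 0.108 ± 0.0575 CPM before and 0.258 ± 0.0974 CPM after differentiation (SD, n = 12), a log2 difference of 1.205 (SE 0.292, adjusted p = 4.98e-04), but its libraries overlapped and it shares sequence with Hoxb3os. Smaller increases passed for Hoxa4 (0.54), Hoxc4 (0.47), Hoxc9 (0.45), Hoxc13 (0.39), Hoxa3 (0.23), Hoxa7 (0.23) and Hoxa10 (0.06). The last did not pass with library totals in place of TMM, and was lost in 5 of the 24 fits that left out 1 library, with adjusted p up to 0.0793. Hoxa2, Hoxa6, Hoxb4, Hoxc10 and Hoxc12 did not pass, with differences of at most 0.20 in size.

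**Figure D2:**
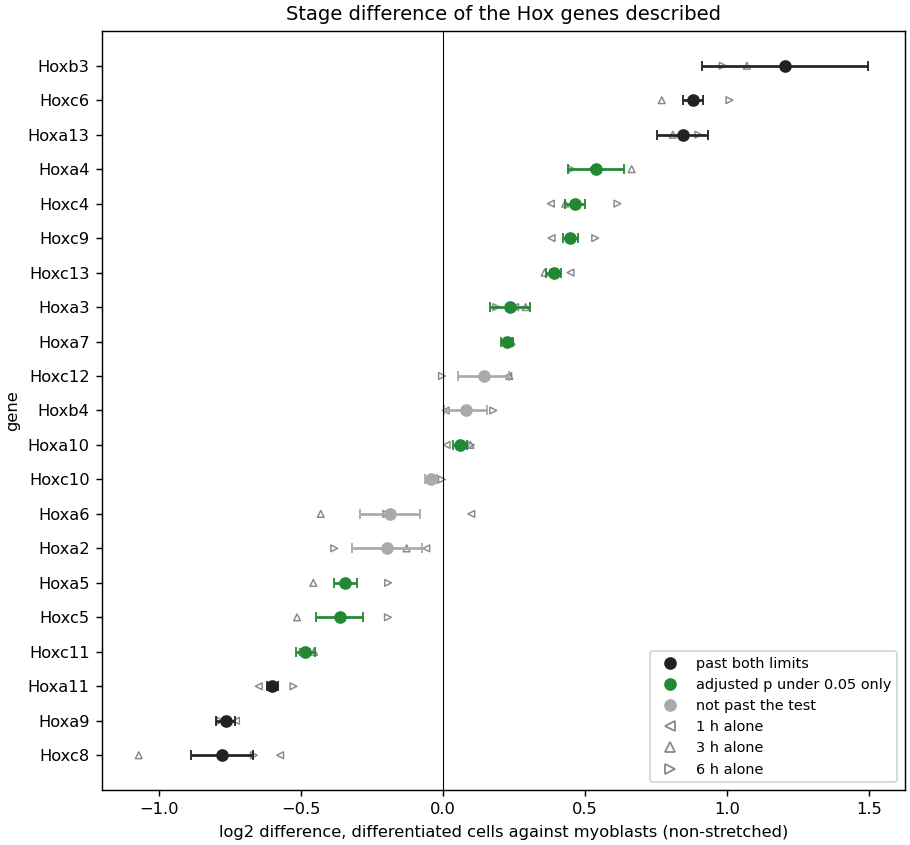
Log2 difference of 21 Hox genes between differentiated cells and myoblasts, with its standard error as the bar, in the 24 non-stretched libraries; open triangles give the difference at 1 h, 3 h and 6 h alone. Hoxc8, Hoxa9 and Hoxa11 lie past -0.58 and Hoxa13, Hoxc6 and Hoxb3 past 0.58, and the 3 times alone fall on the same side for these 6 genes wherever they could be tested.

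After stretch, most changes that passed were small, and at 1 h and 3 h they were mostly downward. Over the 6 comparisons of stretched with non-stretched cells, 24 member changes passed an adjusted p of 0.05, 19 downward and 5 upward. Of the 24, 4 also passed a log2 fold change of 0.58 in size. Differentiated cells at 3 h gave 9 of the 19 declines. At 6 h in myoblasts, 1 of 20 tested members fell and 3 rose, beside 13% and 14.1% of all genes. In differentiated cells 0 of 21 fell and 1 rose at this time, beside 10.8% and 11.5%. The members' median log2 fold changes at 6 h were -0.03 and -0.04, so no upward shift of the members is read from these calls. The 24 changes came from 13 members, while 8 members (Hoxa2, Hoxa4, Hoxa6, Hoxb3, Hoxb4, Hoxc4, Hoxc8 and Hoxc11) passed in none. Over all genes, 16647 changes passed an adjusted p of 0.05 in the same 6 comparisons. The pooled member counts are therefore not read as a response of the Hox genes, and the shares for each comparison are given below. Hoxb3 was too low to be tested in myoblasts. Stretched and non-stretched libraries did not overlap for 23 of the 24, beside 88.7% of all gene changes that passed. Within each experiment that held both treatments, taken apart without a test, the direction was the same for all 24. For the 23 that did not overlap this follows from the separation of the groups, so it is no further support. In myoblasts at 3 h, 1 of 5 tested differentiated muscle cell markers fell, and their summed level was 7.64 to 12.3 CPM without and 6.34 to 8.41 CPM with stretch. In differentiated cells at 3 h, 2 of 7 myoblast and dividing cell markers rose, and their summed level was 346 to 364 CPM without and 346 to 397 CPM with stretch. At 1 h none of either list passed, and the 7 markers summed to 314 to 423 CPM in non-stretched and 341 to 625 CPM in stretched differentiated cells. Of the 7, 1 fell and 3 rose in myoblasts at 3 h, and 3 fell and 3 rose at 6 h. In differentiated cells at 6 h, 2 fell and 1 rose. Of the muscle cell markers, 1 of 4 tested fell in myoblasts at 6 h, and 0 passed in differentiated cells at 3 h or 6 h. The shares of all genes are those given below with the members. The part of these markers in the Hox changes was not tested.

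In myoblasts at 1 h, 3 of 20 tested members fell (Hoxa3, Hoxa9 and Hoxc5) and 0 rose, beside 4.24% and 1.67% of all genes, and 1 passed both limits, beside 1.25%. At 3 h, 4 members fell (Hoxa5, Hoxc6, Hoxc10 and Hoxc12) and 1 rose (Hoxa11), beside 15.8% and 16%, and 0 passed both limits, beside 1.71%. At 6 h, 1 fell (Hoxc9) and 3 rose (Hoxa11, Hoxc6 and Hoxc13), beside 13% and 14.1%, and 0 passed both limits, beside 2.17%. By unadjusted p under 0.05 these comparisons had 6, 8 and 11 members, beside 19%, 41.5% and 38.9% of all genes, and the ranges of 5, 6 and 5 members did not overlap, beside 13.3%, 30.8% and 28.7%. The members' median log2 fold change was -0.09, -0.21 and -0.03, with 15, 15 and 11 of 20 below 0, while the median of all genes lay within 0.01 of 0.

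In differentiated cells at 1 h, 2 of 21 members fell (Hoxa3 and Hoxa9) and 0 rose, beside 0.47% and 0.193% of all genes, and both passed both limits, beside 0.27%. At 3 h, 9 of 21 members fell and 0 rose, beside 11.4% and 10.8%, and 1 passed both limits, beside 1.63%. They were Hoxa3, Hoxa7, Hoxa9, Hoxa10 and Hoxa13 of HoxA, and Hoxc6, Hoxc10, Hoxc12 and Hoxc13 of HoxC. At 6 h, 0 fell and 1 rose (Hoxc10), beside 10.8% and 11.5%, and 0 passed both limits, beside 2.04%. By unadjusted p under 0.05 the 3 comparisons had 8, 14 and 6 members, beside 8.92%, 34.9% and 35.8% of all genes. The median log2 fold change was -0.15, -0.25 and -0.04, with 18, 19 and 12 of 21 below 0. At 3 h the 10 HoxA genes tested here had a fold change below 0, from -0.84 to -0.13, and 5 of them passed. The ranges of 11 members did not overlap at 3 h, beside 25.9% of all genes, against 3 at 1 h (6.37%) and 1 at 6 h (26.4%). Without stretched replicate 4, the 1 h comparison called the same number, 2 lower and 0 higher (Hoxa3 and Hoxa9), beside 0.655% and 0.464% of all genes, and 1 of them (Hoxa3) passed both limits. The median was then -0.18, with 19 of 21 below 0, and 6 members had an unadjusted p under 0.05, beside 8.45%.

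**Figure D3:**
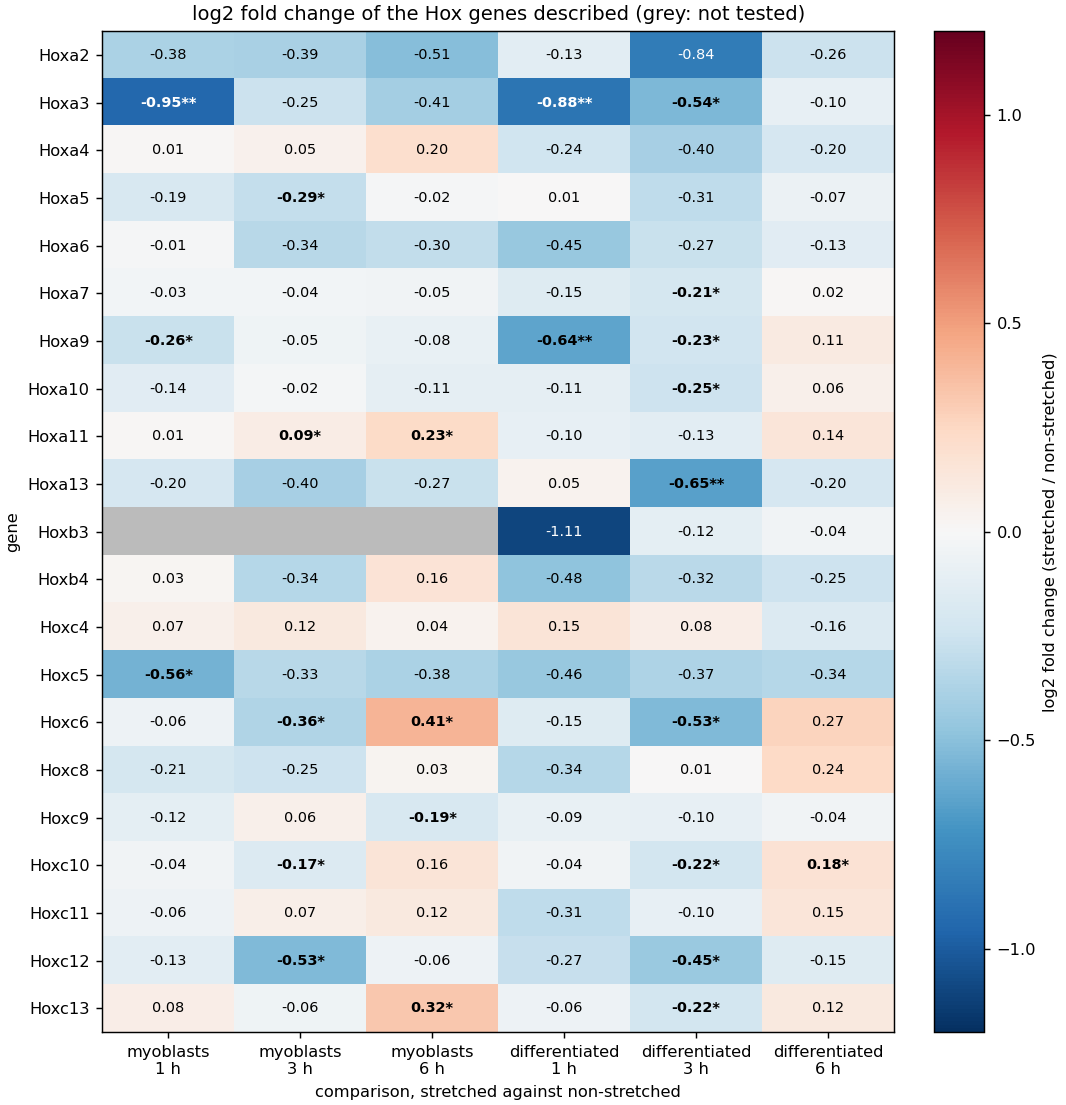
Log2 fold change of 21 Hox genes (rows) between stretched and non-stretched cells in 6 comparisons (columns), 4 libraries against 4 in each; blue is lower and red higher after stretch, 1 star marks an adjusted p under 0.05 and 2 stars also a fold change past the limit of 0.58. The column of differentiated cells at 3 h holds 9 starred declines, and stars above 0 stand in myoblasts at 3 h and 6 h and in differentiated cells at 6 h.

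Among the anterior HoxA genes, Hoxa3, which patterns the neck and the pharyngeal arches, had the largest change among those that passed. In myoblasts at 1 h its non-stretched libraries gave 3.04, 2.70, 3.01 and 2.40 CPM and its stretched libraries 1.17, 1.66, 1.37 and 1.57 CPM. Every stretched library lay below every non-stretched one, and the log2 fold change was -0.95 (SE 0.128, adjusted p = 0.00134, edgeR quasi-likelihood). The values in differentiated cells at 1 h were 3.15, 3.90, 2.79 and 3.63 CPM without stretch and 1.52, 1.72, 1.90 and 2.16 CPM with it, a log2 fold change of -0.88 (SE 0.146, adjusted p = 0.0303). At 3 h in differentiated cells they were 3.27, 3.12, 3.18 and 3.20 CPM against 2.23, 2.68, 1.99 and 1.87 CPM, a log2 fold change of -0.54 (SE 0.113, adjusted p = 0.00682). The groups were again separate both times. In the other 3 comparisons the fold changes were -0.25 (myoblasts, 3 h), -0.41 (myoblasts, 6 h, adjusted p = 0.0545) and -0.10 (differentiated cells, 6 h), none past the test. Without the library that stood apart, the differentiated 1 h change was -0.80 (adjusted p = 0.0353). It no longer passed in 6 of the 8 fits that left out 1 library, all but those without stretched replicate 4 or 9, with adjusted p from 0.0686 to 0.114.

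Hoxa5, a gene of the cervical and lung region, gave 4.17, 4.65, 4.17 and 4.15 CPM against 3.72, 3.48, 3.68 and 3.26 CPM in myoblasts at 3 h, a log2 fold change of -0.29 (SE 0.0772, adjusted p = 0.0123). Its other 5 fold changes lay between -0.31 and 0.01 and did not pass.

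Of the posterior HoxA genes, Hoxa9 fell in 3 comparisons. In myoblasts at 1 h it gave 31.8, 31.4, 37.7 and 31.4 CPM without stretch and 27.9, 28.2, 27.5 and 26.7 CPM with it, a log2 fold change of -0.26 (SE 0.0579, adjusted p = 0.0207). The high value of 37.7 CPM was 1 library, and the call was lost without stretched replicate 9 or 10 (adjusted p = 0.0656 and 0.0847). The values in differentiated cells at 1 h were 21.4, 18.8, 20.5 and 19.96 against 11.4, 12.4, 11.8 and 16.3 CPM, a log2 fold change of -0.64 (SE 0.106, adjusted p = 0.0303). The stretched libraries were all below the non-stretched ones, with replicate 9 nearest to them. Without the library that stood apart, the change was -0.579, just short of the fold limit (adjusted p = 0.0369), and it did not pass in the same 6 fits as for Hoxa3, with adjusted p from 0.0833 to 0.140. At 3 h in differentiated cells Hoxa9 gave 18.4, 19.3, 19.97 and 19.4 against 16.6, 17.7, 15.5 and 16.2 CPM, a log2 fold change of -0.23 (SE 0.0479, adjusted p = 0.00738). At 6 h in the same cells the fold change was 0.11 and did not pass, as did those of -0.05 and -0.08 in myoblasts at 3 h and 6 h.

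Hoxa13 fell in differentiated cells at 3 h. Its libraries gave 2.05, 1.42, 1.83 and 1.68 CPM without stretch and 1.08, 1.18, 1.00 and 1.201 CPM with it, a log2 fold change of -0.65 (SE 0.137, adjusted p = 0.00727). The groups were separate, the adjusted p stayed at or below 0.0228 whichever library was left out, and without non-stretched replicate 7 the fold change was -0.57, short of the fold limit. In the other 5 comparisons its fold changes lay between -0.40 and 0.05 and did not pass. Hoxa7 and Hoxa10, which lie on either side of Hoxa9 in the cluster, fell at the same time by less. Hoxa7 gave 24.3, 24.7, 24.7 and 24.2 against 21.0, 21.6, 20.7 and 21.3 CPM, a log2 fold change of -0.21 (SE 0.0324, adjusted p = 0.00158). Hoxa10 gave 30.2, 30.2, 29.5 and 29.5 against 24.6, 26.6, 23.6 and 25.9 CPM, a log2 fold change of -0.25 (SE 0.0399, adjusted p = 0.00194). Both had tight non-stretched libraries, with SDs of 0.260 and 0.373 CPM, and neither passed in another comparison, where Hoxa7 lay between -0.15 and 0.02 and Hoxa10 between -0.14 and 0.06.

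Hoxa11 was the one HoxA gene that rose in myoblasts at 2 times. At 6 h it gave 25.04, 25.5, 26.0 and 25.1 CPM without stretch and 29.8, 28.6, 32.1 and 27.1 CPM with it, a log2 fold change of 0.23 (SE 0.0498, adjusted p = 0.00607). At 3 h it gave 25.7, 25.2, 23.9 and 24.3 against 26.5, 27.4, 26.2 and 26.0 CPM, a log2 fold change of 0.09 (SE 0.0324, adjusted p = 0.0489). The groups at 3 h were separate by a narrow margin, and the call held in 1 of 8 fits with a library left out, the one without non-stretched replicate 7. In the other 7 the adjusted p ran from 0.0600 to 0.138. In differentiated cells the fold changes were -0.10, -0.13 and 0.14 and did not pass. Its antisense transcript Hoxa11os, which shares sequence with it, fell in myoblasts at 3 h (-0.17, adjusted p = 0.00897) and in differentiated cells at 3 h (-0.46, adjusted p = 0.00446).

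**Figure D4:**
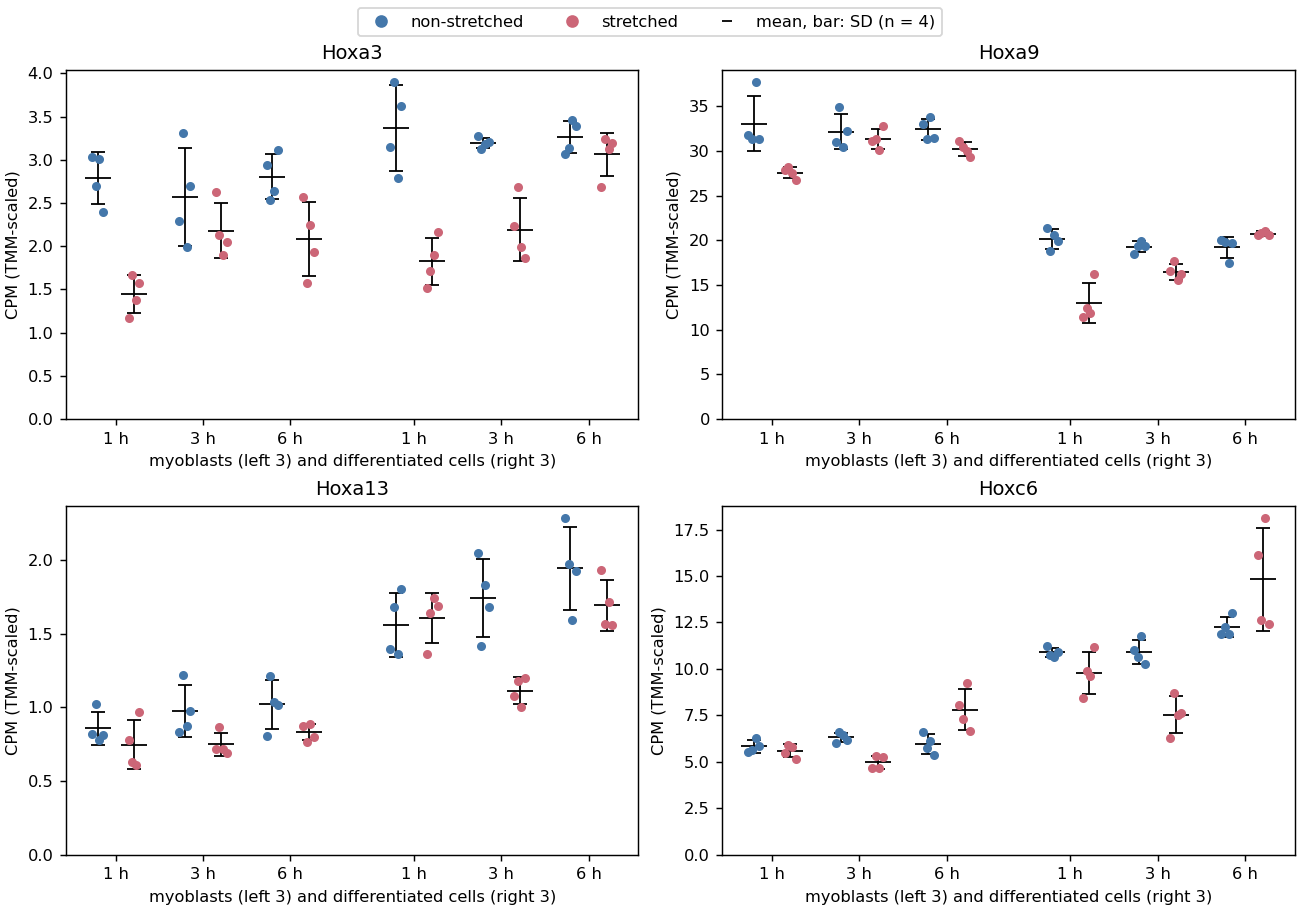
Level of Hoxa3, Hoxa9, Hoxa13 and Hoxc6 in CPM (linear axis from 0) in each of the 48 libraries, by stage and hours of stretch; blue points are non-stretched and red points stretched libraries, and the black mark and bar give the mean and SD of 4 libraries. Hoxa3 and Hoxa9 sit lowest at 1 h of stretch, Hoxa13 lies below its controls at 3 h in differentiated cells, and Hoxc6 lies below its controls at 3 h and above them at 6 h in myoblasts.

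Hoxc6, a gene of the thoracic region, moved both ways in myoblasts. In myoblasts at 3 h it gave 6.04, 6.60, 6.47 and 6.18 CPM without stretch and 4.65, 5.29, 4.68 and 5.26 CPM with it, a log2 fold change of -0.36 (SE 0.0709, adjusted p = 0.00190). At 6 h it gave 6.59, 5.76, 6.12 and 5.35 against 8.04, 7.28, 9.22 and 6.66 CPM, a log2 fold change of 0.41 (SE 0.103, adjusted p = 0.0132). Stretched libraries lay wholly below at 3 h and wholly above at 6 h. The values in differentiated cells at 3 h were 10.995, 10.6, 11.7 and 10.2 against 6.29, 8.70, 7.52 and 7.64 CPM, a log2 fold change of -0.53 (SE 0.0883, adjusted p = 0.00222). At 6 h in those cells the stretched libraries gave 16.1, 12.7, 18.1 and 12.4 CPM against 11.9, 12.2, 11.9 and 13.004 CPM, and the fold change of 0.27 did not pass (adjusted p = 0.102), with overlapping groups. At 1 h the fold changes were -0.06 in myoblasts and -0.15 in differentiated cells and did not pass.

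Hoxc10, the highest of all members and a marker of the lumbar region and hind limb, fell at 3 h in both stages. In myoblasts it gave 52.0, 46.5, 47.6 and 46.0 CPM against 44.6, 42.8, 40.9 and 44.1 CPM, a log2 fold change of -0.17 (SE 0.0382, adjusted p = 0.00517). In differentiated cells it gave 48.0, 49.3, 45.1 and 45.2 against 38.1, 42.4, 39.9 and 40.3 CPM, a log2 fold change of -0.22 (SE 0.0410, adjusted p = 0.00377). Both pairs of groups were separate. At 6 h in differentiated cells it gave 47.0, 50.5, 49.6 and 50.7 against 61.0, 53.7, 58.5 and 50.6 CPM, a log2 fold change of 0.18 (SE 0.0550, adjusted p = 0.0428). Here the groups overlapped, and the call was lost in 7 of the 8 fits with a library left out, all but the one without stretched replicate 10, with adjusted p from 0.0510 to 0.112. It was also lost with the experiment as a covariate, where Hoxc5 passed in its place. In myoblasts at 6 h the fold change was 0.16 (adjusted p = 0.0731), and at 1 h it was -0.04 in both stages.

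Hoxc13, the most posterior HoxC gene and one known for hair and nail, rose in myoblasts at 6 h. It gave 13.4, 12.04, 12.97 and 13.4 CPM against 16.3, 15.4, 16.8 and 15.2 CPM, a log2 fold change of 0.32 (SE 0.0506, adjusted p = 0.00116). It fell in differentiated cells at 3 h, with 16.4, 16.5, 17.04 and 18.1 against 14.2, 15.8, 13.5 and 14.9 CPM, a log2 fold change of -0.22 (SE 0.0558, adjusted p = 0.0180). The groups were separate in both, and its other fold changes were 0.08, -0.06, -0.06 and 0.12. Hoxc12 fell at 3 h, in myoblasts from 0.932, 1.21, 1.09 and 1.10 to 0.779, 0.745, 0.670 and 0.839 CPM, a log2 fold change of -0.53 (SE 0.147, adjusted p = 0.0141). Differentiated cells at 3 h gave 1.23, 1.28, 1.41 and 1.25 against 1.14, 0.818, 0.988 and 0.820 CPM, a log2 fold change of -0.45 (SE 0.141, adjusted p = 0.0432). That second call was lost in 7 of 8 fits with a library left out, all but the one without stretched replicate 7, with adjusted p from 0.0674 to 0.107. Its fold changes at the other times lay between -0.27 and -0.06.

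Hoxc5 and Hoxc9 each passed once. Hoxc5 gave 2.45, 2.34, 2.85 and 2.36 CPM in non-stretched and 1.58, 2.10, 1.64 and 1.46 CPM in stretched myoblasts at 1 h, a log2 fold change of -0.56 (SE 0.129, adjusted p = 0.0253). The groups were separate, but the call was lost when non-stretched replicates 7 or 9, or stretched replicates 7, 9 or 10, were left out, with adjusted p from 0.0575 to 0.0910. Its other 5 fold changes were all below 0, from -0.46 to -0.33, and did not pass. Hoxc9 gave 13.2, 12.2, 13.2 and 11.8 CPM against 11.5, 10.9, 10.6 and 10.5 CPM in myoblasts at 6 h, a log2 fold change of -0.19 (SE 0.0541, adjusted p = 0.0222). This call was lost when non-stretched replicates 7 or 9, or stretched replicates 9 or 10, were left out, with adjusted p from 0.0528 to 0.0709, and elsewhere its fold changes lay between -0.12 and 0.06.

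Of the 8 members that passed in no comparison, Hoxb3 and then Hoxa2 had the most negative fold changes, and both are low and imprecisely measured. At 3 h in differentiated cells Hoxa2 gave 0.604, 0.444, 0.987 and 0.689 CPM without stretch and 0.261, 0.294, 0.460 and 0.515 CPM with it, a log2 fold change of -0.84 (SE 0.290, adjusted p = 0.0619). This SE was the largest of the 21 members in that comparison, and the groups overlapped. Its fold change was below 0 in all 6 comparisons, and at this time it passed both limits with DESeq2, with all 24 libraries of the stage in the fit, with the experiment as a covariate and with a replicate block. Hoxb3 had a fold change of -1.11 in differentiated cells at 1 h with an SE of 0.491, from libraries of 0.125, 0.379, 0.386 and 0.327 against 0.0190, 0.166, 0.232 and 0.131 CPM, and did not pass (adjusted p = 0.548). The lowest of these was the library that stood apart, and without it the fold change was -0.78 (SE 0.398, adjusted p = 0.706). For the members that did not pass, fold changes ranged from -0.38 to 0.08, -0.40 to 0.12 and -0.51 to 0.20 in myoblasts at 1 h, 3 h and 6 h. In differentiated cells they ranged from -1.11 to 0.15, -0.84 to 0.08 and -0.34 to 0.27. Among the tested members SEs ran from 0.0310 to 0.491, smallest for the abundant genes.

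Whether the effect of stretch differed between times was tested as an interaction in 1 model per stage. Between 6 h and 1 h it differed for 3 members in myoblasts and 6 in differentiated cells, beside 21.1% and 11.9% of all genes. Between 6 h and 3 h it differed for 6 members in each stage, beside 26.5% and 12%, and between 3 h and 1 h for 1 and 2 members, beside 10.9% and 5.15%. Only the pair of 6 h and 1 h was planned. The pairs of 6 h and 3 h and of 3 h and 1 h were added after the data were seen. Among the differences that passed, the largest was that of Hoxc6 between 6 h and 3 h in differentiated cells, 0.80 (SE 0.147, adjusted p = 0.00105). In myoblasts the difference of Hoxc6 between these times was 0.77 (SE 0.122, adjusted p = 4.36e-05). Between 6 h and 1 h in differentiated cells, Hoxa3 differed by 0.78 (SE 0.166, adjusted p = 0.00359) and Hoxa9 by 0.74 (SE 0.109, adjusted p = 1.47e-04). Of the 24 differences, 21 were upward with time, that is, toward a less negative or more positive effect, beside 54.5% of those of all genes. The 3 pairs of times in a stage share libraries, so these differences are not independent. Those of differentiated cells that use 1 h include stretched replicate 4, the library that stood apart. Differences in stretch effect between the 2 stages were not tested.

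The TALE cofactors, through which Hox proteins gain binding specificity, were read from a list of 8 genes, all detected, with a summed level of 182 to 208 CPM in myoblasts and 208 to 247 CPM in differentiated cells. None of the 8 passed at 1 h in either stage. At 3 h in differentiated cells 4 fell and 0 rose: Meis2 (-0.32, adjusted p = 0.00123), Meis1 (-0.30, adjusted p = 0.00188), Meis3 (-0.23, adjusted p = 0.0170) and Pbx2 (-0.19, adjusted p = 0.00205). In myoblasts at 3 h Pbx2 (-0.28) and Meis2 (-0.12) fell and 0 rose. At 6 h 1 cofactor rose in each stage, Meis2 in myoblasts (0.16) and Meis1 in differentiated cells (0.15). Between stages 3 of the 8 were lower and 4 higher in differentiated cells, beside 44.3% and 45% of all genes, a share of calls near that background. Among them were Pknox2 (2.81), Pbx3 (1.35), Meis1 (-0.58) and Pbx2 (0.44).

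Of 19 noncoding transcripts and flanking homeobox genes of the clusters in the tables, 5 or 6 were high enough to test. Hotair, transcribed from within HoxC, fell in myoblasts at 1 h (-0.68, adjusted p = 0.0156), and its fold change of -0.57 in differentiated cells at 1 h did not pass (adjusted p = 0.224). With Hoxa11os this was all that passed after stretch. Between stages Hoxa11os was lower in differentiated cells (-0.73) and Halr1 (4.83), Hoxaas2 (1.52), Hotairm1 (0.50) and Hotair (0.22) were higher.

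Regulators of Hox genes were read from 2 lists. Of 17 genes of retinoic acid handling and the Cdx family, 7 to 10 could be tested after stretch, and 0, 2 and 0 fell and 0, 2 and 3 rose in myoblasts at 1 h, 3 h and 6 h. In differentiated cells 0, 3 and 2 fell and 0, 1 and 0 rose, among them Rarg (-0.28) and Cyp26a1 (0.68), an enzyme that breaks down retinoic acid, at 3 h, and Dhrs3 (-0.83) and Cyp26b1 (-0.66) at 6 h. Of 21 Polycomb and trithorax genes, which keep Hox genes silent or active through histone marks, 2, 4 and 5 fell and 0, 6 and 2 rose in myoblasts. In differentiated cells 0, 2 and 2 fell and 0, 4 and 4 rose. Ezh1, a Polycomb methyltransferase, fell at 3 h in both stages (-0.45 and -0.43). Between stages 12 of the 21 were lower and 8 higher, again beside 44.3% and 45% of all genes, with Ezh1 higher (1.86) and Ezh2 (-1.75), Suz12 (-1.07) and Eed (-0.80) lower in differentiated cells. After stretch the shares of all genes are those given with the members of each comparison. The list medians after stretch lay between -0.13 and 0.25 for the cofactors and both regulator lists, and none of these was more than 0.3 from the median of all genes. Those of the noncoding and flanking transcripts lay between -0.37 and -0.07. The lowest was in differentiated cells at 3 h, beside -0.001 for all genes, where 1 of 5 tested genes fell past the test.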

How the data were processed

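RNA of C2C12 cells was sequenced in 48 libraries, and the values are whole-number read counts per gene as deposited by the authors in 1 table per stage. The tools named for their processing are STAR, Salmon and DESeq2, with the mouse build mm10. The strand setting of the counting is not given in the sources used here. The molecule label reads nuclear RNA, while the methods describe a stranded mRNA kit.

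Counts were tested with edgeR 4.0.16 (R 4.3.3): filterByExpr, TMM, and the quasi-likelihood test with Benjamini-Hochberg adjustment over all genes tested. Each stretch comparison used its own 8 libraries. The stage comparison joined both tables by gene symbol and set the mean of the 3 differentiated groups against that of the 3 myoblast groups in the 24 non-stretched libraries, a test the study did not make. Interactions used all 24 libraries of a stage. Limits were an adjusted p of 0.05 and, where stated, a log2 fold change of 0.58. Tests were checked on simulated counts. Some genes are not reported here, and counts of members leave them out. Levels between genes were divided by merged exon length (GENCODE, GRCm38), with 95.2% of symbols matched. Library totals of 48447300 to 77080700 counts limit precision for low genes such as Hoxb3. No 2 replicates agreed within sampling noise.

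Members, gene lists and the choice of named genes (every member, with its fold change in all comparisons if it passed in any, and up to 4 genes of a list with the smallest p; Hoxa2 and Hoxb3 were singled out after their values were seen) rest on earlier results of these data. The stretch response genes, a check of the treatment, had 6 of 6 higher in myoblasts and 3 of 6 in differentiated cells at 1 h. At 3 h 3 were higher and 1 lower in each stage, and at 6 h 3 were lower in each. Fibroblast and adipocyte markers had 1 tested gene in myoblasts, lower at 3 h and 6 h, and 2 in differentiated cells, 1 of them lower at 6 h. Alternatives were DESeq2 1.42.0, other scalings and filters, all libraries of a stage, the experiment or replicate number as a covariate, and leaving out each library.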

Additional observations from a re-analysis of the deposited data

Results flagged for a closer look

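Of 252 groups of 4 libraries (21 genes in 12 groups), 13 held a library far from the other 3 by Dixon's test, about what chance gives (1 in 20). In myoblasts these were Hoxa5 in non-stretched replicate 8 at 3 h (4.65 CPM) and stretched replicate 7 at 6 h (4.23 CPM), Hoxa9 in non-stretched replicate 9 at 1 h (37.7 CPM), Hoxa13 in non-stretched replicate 8 at 1 h (1.03 CPM) and Hoxc5 in non-stretched replicate 7 at 3 h (2.35 CPM). They were also Hoxc8 in non-stretched replicate 9 at 1 h (2.01 CPM) and stretched replicate 7 at 6 h (2.05 CPM), Hoxc9 in stretched replicate 10 at 3 h (12.98 CPM), Hoxc12 in non-stretched replicate 10 at 6 h (1.22 CPM) and Hoxc13 in non-stretched replicate 9 at 3 h (12.6 CPM). In differentiated cells they were Hoxa9 in non-stretched replicate 9 at 6 h (17.5 CPM), Hoxc5 in non-stretched replicate 10 at 1 h (1.46 CPM) and Hoxc8 in non-stretched replicate 8 at 1 h (0.971 CPM).

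The effect of stretch differed between times for 24 combinations of gene, stage and pair of times (edgeR quasi-likelihood, adjusted p under 0.05 over all genes). The values are log2 differences, later minus earlier time. In myoblasts between 6 h and 1 h they were 0.22 for Hoxa11 (adjusted p = 0.00439), 0.47 for Hoxc6 (0.00694) and 0.24 for Hoxc13 (0.0294). Between 6 h and 3 h they were 0.15 for Hoxa11, 0.77 for Hoxc6, -0.24 for Hoxc9, 0.33 for Hoxc10, 0.48 for Hoxc12 and 0.38 for Hoxc13. Between 3 h and 1 h Hoxa3 differed by 0.69 (adjusted p = 0.0425).

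In differentiated cells between 6 h and 1 h they were 0.78 for Hoxa3, 0.74 for Hoxa9, 0.24 for Hoxa11, -0.32 for Hoxc4, 0.22 for Hoxc10 and 0.45 for Hoxc11. Hoxc4 and Hoxc11 passed in no stretch comparison taken alone. Between 6 h and 3 h they were 0.33 for Hoxa9, 0.31 for Hoxa10, 0.27 for Hoxa11, 0.80 for Hoxc6, 0.40 for Hoxc10 and 0.34 for Hoxc13. Between 3 h and 1 h Hoxa9 differed by 0.41 and Hoxa13 by -0.70 (adjusted p = 0.0301 and 0.0297).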

How the results depend on the processing

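Counts of members past both limits were 1, 0 and 0 in myoblasts at 1 h, 3 h and 6 h, 2, 1 and 0 in differentiated cells, and 6 between stages. Without the fold limit they were 3, 5, 4, 2, 9, 1 and 16. A test against the fold limit itself (glmTreat) left 0 in myoblasts at 1 h and 0 in differentiated cells at 1 h and 3 h. In differentiated cells at 1 h the experiment as a covariate left 1 (Hoxa3) and the replicate block 1 (Hoxa9), and in both fits stretched replicate 4 was alone in its level and carried no weight. At 3 h, DESeq2, all 24 libraries, the experiment and the replicate block each gave 2, adding Hoxa2. Leaving out 1 library gave 1 to 2, 0 to 1 and 0 to 1 in myoblasts, 0 to 2, 0 to 3 and 0 to 0 in differentiated cells, and 6 to 7 between stages. Over all genes, 42 passed both limits in differentiated cells at 1 h, against 98 with DESeq2 and 126 with all 24 libraries. A rule of a mean of at least 100 counts kept 13 members. In myoblasts at 6 h, 4 members passed by p alone and 8 did with all 24 libraries or with the replicate block. Whether the replicate numbers pair the libraries is not settled. Of 23 pairs with the same number, 6 correlated above 0.1, with a range from -0.045 to 0.152, and pairs with unlike numbers were not compared. Of the member changes after stretch, the block ended those of Hoxa11 (myoblasts, 3 h), Hoxa3 (differentiated, 1 h, adjusted p = 0.0671), Hoxc10 (differentiated, 6 h) and Hoxc12 (differentiated, 3 h), and no other. The experiment as a covariate ended that of Hoxc10 (differentiated, 6 h). The stage difference of Hoxa10 was lost without myoblast replicates 9 and 10 (3 h) and 10 (6 h) and differentiated replicates 7 (1 h) and 8 (6 h). The causes were not tested. No scaling moved the median of all genes by 0.1.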
